A study of Homo sapiens with 6 samples.

Results

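TGF-beta and activin signal through a short chain of proteins, and 10 genes of that chain were followed here across the control (NC) and RBM47-overexpressing (RBM47-OE) libraries of HCT116 cells. They were chosen by name, with earlier results of these data known. The set holds the receptors TGFBR1, TGFBR2, ACVR1C and ACVR2A, the SMADs SMAD2, SMAD3, SMAD4 and SMAD7, and the repressors SKI and SKIL. All 10 were found among the 28491 genes of the count table, and all 10 passed the filter on low counts. ACVR1C and SKIL are genes that the study drew from this same comparison, so their changes are given as a description with no test, and the other 8 were tested. HCT116 is an established human colorectal carcinoma line. NC cells received a control plasmid and RBM47-OE cells an RBM47 plasmid by lipid transfection, and poly(A) RNA was sequenced, with 3 libraries in each group. The methods give 48 h of culture after transfection. The labels name the RBM47 plasmid as pcDNA3.1-3xFlag-RBM47 and the methods name pIRES-hrGFP-1a. Both groups grew in medium with fetal bovine serum, and neither source mentions added TGF-beta or activin. Each library pools the RNA of a whole culture, so a change in every cell and a larger change in some of the cells cannot be told apart. Nothing says that the 3 libraries of a group came from separate cultures, so p-values measure only the spread between these libraries.

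In this pathway a ligand dimer brings a type II receptor (TGFBR2 for TGF-beta, ACVR2A for activins) together with a type I receptor (TGFBR1, or ACVR1C, also called ALK7), and the type II kinase switches on the type I kinase. The type I kinase phosphorylates the receptor-regulated SMADs, SMAD2 and SMAD3, which join the common partner SMAD4 and enter the nucleus to regulate transcription. SMAD7 is an inhibitory SMAD that blocks the type I receptor. SKI and SKIL (also called SnoN) bind the nuclear SMADs and recruit co-repressors, and SMAD7 and SKIL are themselves induced by the pathway as negative feedback. In the colon the pathway restrains epithelial growth, and in mismatch repair-deficient tumours such as the one that gave HCT116 it is often cut by frameshifts in runs of A in the coding sequences of TGFBR2 and ACVR2A.

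Those runs are shown because they set how the receptor levels can be read: the libraries count receptor mRNA, whatever reading frame it carries. In the canonical transcripts of GENCODE 44, the longest run of A in the coding sequence was 10 bases in TGFBR2 and 8 bases in ACVR2A, which has 2 such runs. In SKIL it was 7, in SMAD4 6, in TGFBR1, ACVR1C and SMAD2 5, and in SMAD3, SMAD7 and SKI 4. A run of 10 or more was present in 0.294% of the 19749 coding transcripts, and a run of 8 or more in 4.05%. The reference sequences follow, 5′ to 3′ on the coding strand, with the run in capitals.
TGFBR2, exon 3: attatgaaggAAAAAAAAAAgcctggtgag
ACVR2A, exon 3: gattgtgtagAAAAAAAAgacagccctgaa
ACVR2A, exon 10: tgttgtgcatAAAAAAAAgaggcctgtttt
On the plus strand of GRCh38 the TGFBR2 run lies in exon 3 of 7, at chr3:30650380-30650389, and the ACVR2A runs lie in exons 3 and 10 of 11, at chr2:147899472-147899479 and chr2:147926117-147926124. These letters come from the reference, and the deposited tables do not show which alleles the cells carry.

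Between 26792409 and 35477983 reads were counted on genes in each library. RBM47 itself rose from a mean of 2.06 to 129.6 FPKM (fragments per kilobase of gene, scaled to the mapped fragments of the library). The 5 epithelial markers EPCAM, KRT8, KRT18, KRT19 and CDH1 each averaged at least 1 FPKM, with summed levels of 1883 to 2052 FPKM in NC and 1751 to 1979 FPKM in RBM47-OE. The summed levels were at most 0.08 FPKM for leukocyte and 0.16 FPKM for endothelial markers, and 1.31 to 1.72 FPKM for fibroblast markers, which came from COL1A1 alone because COL1A2, DCN and LUM, like the leukocyte marker PTPRC, are not listed in the table. Over the 16233 tested genes with a GC value, the log2 fold change fell with the GC content of the exons (Spearman's rho across genes -0.63, a description without a p-value). Of 10 bins of these genes by GC content, the lowest had median log2 differences from NC of 0.20, 0.43 and 0.47 in RBM47-OE replicates 1, 2 and 3. This trend touches every result below, because 7 of the 10 genes lie in the 4 lowest bins, so each change is also given from a fit with a GC offset, which removes whatever follows GC content in each library.

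In the NC libraries the genes spanned a wide range of levels, here in FPKM, which allows comparison between genes of unequal length. SKI stood highest at 11.2 ± 0.335 (SD, n = 3), higher than 80.3% of 16368 protein-coding genes. SMAD3 followed at 8.12 ± 0.252 (SD, n = 3), then TGFBR1 at 5.17 ± 0.384 (SD, n = 3), TGFBR2 at 3.57 ± 0.284 (SD, n = 3) and SMAD4 at 3.12 ± 0.246 (SD, n = 3). Lower levels were found for SMAD2 at 1.87 ± 0.0252 (SD, n = 3), SKIL at 1.66 ± 0.0265 (SD, n = 3), ACVR2A at 0.910 ± 0.122 (SD, n = 3) and SMAD7 at 0.693 ± 0.0961 (SD, n = 3). ACVR1C was the lowest at 0.250 ± 0.0361 (SD, n = 3), above 25.2% of protein-coding genes, on 58 to 102 counts. Neighbours in this order had ranges that did not overlap, except TGFBR2 with SMAD4 and ACVR2A with SMAD7. In the RBM47-OE libraries the order was the same but for SKIL, which moved above SMAD2, and the ranges of those neighbours overlapped, as did those of SMAD3 and TGFBR1. The place of SMAD2 depends on the length used: its counts and FPKM imply a gene length of 41224 bases, and its annotated 3′ UTR of 32870 bases is the longest of 18195 canonical transcripts with at least 100 such bases. By counts alone SMAD2 had 2087 to 2756 reads in the NC libraries, SMAD3 2431 to 3194 and SKI 2163 to 2957. The place of SKI above SMAD3 thus also depends on length, with implied gene lengths of 7414 bases for SKI and 11300 for SMAD3.

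**Figure D1:**
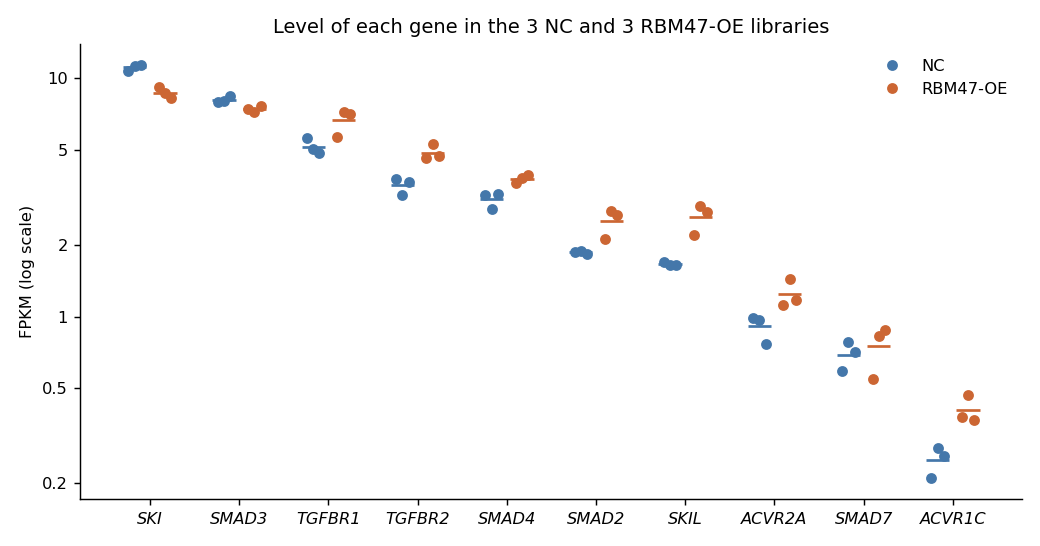
FPKM on a log scale for the 10 genes in the 3 NC (blue) and 3 RBM47-OE (orange) libraries, with lines at the group means and genes ordered by NC level. SKI and SMAD3 lie lower in RBM47-OE, SMAD7 overlaps between groups, and the receptors, SMAD2, SMAD4 and SKIL have higher means in RBM47-OE.

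Of the 8 tested genes, 5 were higher in RBM47-OE (TGFBR1, TGFBR2, ACVR2A, SMAD2 and SMAD4), 2 were lower (SKI and SMAD3) and SMAD7 did not pass, with edgeR's quasi-likelihood test and a threshold of 0.05 on p-values adjusted over the 16260 tested genes. Across all genes, 19.1% were called higher and 16.9% lower, or 35.9% in either direction. Because the 8 were chosen with earlier results of these data known, their count beside these shares is a description only. With the GC offset 2 of the 8 were called, TGFBR2 as higher and SKI as lower, against 14.5% of all genes in either direction. The log2 fold changes of the 8 genes ran from -0.43 for SKI to 0.38 for ACVR2A. Their median was 0.25 and that of all genes 3.96e-05, and the offset brought these medians to 0.0076 and -0.000543. Rises and falls cancel in such a median, and the scaling of the libraries holds that of all genes near 0. In CPM (read counts scaled to library size with TMM factors), 4 of the 8 tested genes had every RBM47-OE value above the highest NC value and 2 had every RBM47-OE value below the lowest, where 23.2% and 23.4% of all genes were separated in these directions. ACVR1C and SKIL were also separated upward, which makes 6 genes. In 4 of those 6 genes RBM47-OE replicate 1 was the lowest of its group. The median difference from NC over the 6 was 0.31, 0.52 and 0.39 on the log2 scale in replicates 1, 2 and 3. These medians are positive by the choice of genes that lay above NC. The share of all genes with replicate 1 lowest was not computed.

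TGFBR2 (ENSG00000163513; plus strand of chromosome 3, 30606601 to 30694142), the type II receptor that binds TGF-beta, had 3.79, 3.25 and 3.67 FPKM in NC replicates 1, 2 and 3 and 4.64, 5.28 and 4.70 FPKM in RBM47-OE replicates 1, 2 and 3. Every RBM47-OE library was above every NC library. The change was 1.30-fold, a log2 fold change of 0.38 (standard error 0.087, adjusted p = 0.0016 in edgeR). With the GC offset it was 0.26 (standard error 0.073, edgeR adjusted p = 0.020), and its exonic GC content of 44.7% placed it in a GC bin whose median log2 fold change was 0.12. With any single library left out the log2 fold change was 0.31 to 0.42 and the edgeR adjusted p at most 0.032. It was the single receptor gene called with the GC offset among the 3 tested, on 796 to 1252 reads in each library.

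TGFBR1 (ENSG00000106799; plus strand of chromosome 9, 99104038 to 99154192), the type I partner of TGFBR2, had 5.60, 5.05 and 4.86 FPKM in NC and 5.67, 7.20 and 7.10 FPKM in RBM47-OE. Replicates 2 and 3 of RBM47-OE were higher than all NC libraries, while replicate 1 was level with NC replicate 1. In CPM the groups overlapped, with 43.7 in RBM47-OE replicate 1 and 44.5 in NC replicate 1. TGFBR1 rose by 0.29 on the log2 scale, with a standard error of 0.087 (edgeR adjusted p = 0.011), and with the GC offset it turned to -0.02 (edgeR adjusted p = 0.87). Its exonic GC content was 39.1%, in a GC bin with a median of 0.31. The call was lost without NC replicate 2 (edgeR adjusted p = 0.065), NC replicate 3 (0.082), RBM47-OE replicate 2 (0.066) or RBM47-OE replicate 3 (0.052).

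ACVR2A (ENSG00000121989; plus strand of chromosome 2, 147844517 to 147930826), a type II receptor for activins, had 0.99, 0.97 and 0.77 FPKM in NC and 1.12, 1.44 and 1.17 FPKM in RBM47-OE. The groups did not overlap, and NC replicate 3 lay lowest. ACVR2A rose by 0.38 on the log2 scale, with a standard error of 0.13 (edgeR adjusted p = 0.028), and 0.04 with the GC offset (edgeR adjusted p = 0.89), at an exonic GC content of 37.3%. Without NC replicate 3 the edgeR adjusted p was 0.18 and without RBM47-OE replicate 2 it was 0.16. The counts were 166 to 322 per library. Exons of ORC4, a replication origin gene on the opposite strand, cover 6.68% of the exonic bases of ACVR2A, and whether strand was used in counting is not stated. ORC4 had 656 to 924 reads in NC and 989 to 1172 in RBM47-OE.

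ACVR1C (ENSG00000123612; minus strand of chromosome 2, 157526767 to 157628864), a type I receptor for activin and nodal ligands, was the least abundant of the 10 genes. Its counts were 58, 102 and 78 in NC and 128, 146 and 107 in RBM47-OE, or 0.21, 0.28 and 0.26 FPKM against 0.38, 0.47 and 0.37. The groups did not overlap, and the highest library held 146 reads. Its log2 fold change was 0.61 (standard error 0.18), or 0.25 with the GC offset (standard error 0.18), at the lowest exonic GC content of the 10 genes, 36.1%. The study set a fold change over 1.5 together with a P-value threshold, and only the fold change is compared here. In edgeR ACVR1C at 1.53-fold and SKIL at 1.498-fold stood just inside and just outside that fold change, followed by ACVR2A at 1.30-fold. In DESeq2, the tool named in the methods, ACVR1C at 1.54-fold and SKIL at 1.504-fold were both inside it.

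**Figure D2:**
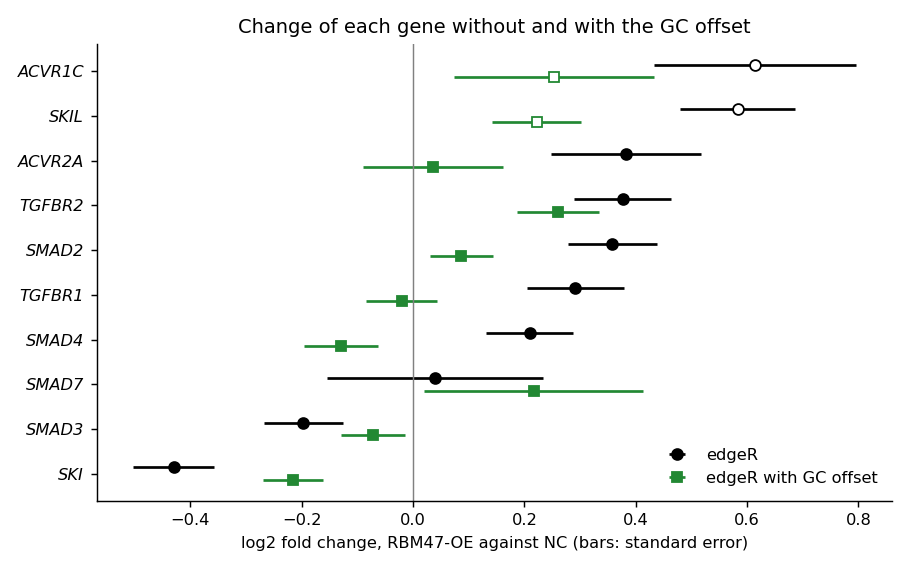
Log2 fold change of each gene in RBM47-OE against NC from edgeR (circles) and from edgeR with the GC offset (squares), with bars of 1 standard error, and open symbols for ACVR1C and SKIL, which the study drew from this comparison. With the offset TGFBR1 moves from 0.29 to -0.02, SMAD4 from 0.21 to -0.13, TGFBR2 from 0.38 to 0.26 and SKI from -0.43 to -0.22.

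Of the receptor-regulated SMADs, SMAD2 rose and SMAD3 fell. SMAD2 (ENSG00000175387; minus strand of chromosome 18, 47808957 to 47931146) had 79.4, 79.7 and 77.8 CPM in NC and 87.2, 109.2 and 107.4 CPM in RBM47-OE. RBM47-OE replicate 1 lay nearer to the NC libraries than replicates 2 and 3 did, but above them. SMAD2 rose by 0.36 on the log2 scale, with a standard error of 0.080 (edgeR adjusted p = 0.0012), and it was 0.30 to 0.46 with single libraries left out. With the GC offset it was 0.09 (edgeR adjusted p = 0.35), at an exonic GC content of 40.7%. SMAD3 (ENSG00000166949; plus strand of chromosome 15, 67063763 to 67195173) had 92.5, 92.4 and 97.2 CPM in NC and 83.8, 77.4 and 84.9 CPM in RBM47-OE, again without overlap. The change of SMAD3 was -0.20 on the log2 scale, with a standard error of 0.071 (edgeR adjusted p = 0.031), and -0.07 with the GC offset (edgeR adjusted p = 0.45), at an exonic GC content of 52.6%. The SMAD3 call was lost without NC replicate 1 (edgeR adjusted p = 0.084), NC replicate 2 (0.091), NC replicate 3 (0.16) or RBM47-OE replicate 2 (0.12).

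SMAD4 (ENSG00000141646; plus strand of chromosome 18, 51028528 to 51085045), the partner shared by all receptor-regulated SMADs, had 3.25, 2.84 and 3.28 FPKM in NC and 3.62, 3.83 and 3.93 FPKM in RBM47-OE. The groups did not overlap, and NC replicate 2 was the lowest library. SMAD4 rose by 0.21 on the log2 scale, with a standard error of 0.079 (edgeR adjusted p = 0.039), and it turned to -0.13 with the GC offset (edgeR adjusted p = 0.22), at an exonic GC content of 37.5%. It held without RBM47-OE replicate 1, and was lost without NC replicate 1 (edgeR adjusted p = 0.064), 2 (0.30) or 3 (0.066) and without RBM47-OE replicate 2 (0.069) or 3 (0.11). A gene listed as ENSG00000267699 on the same strand shares 967 exonic bases with SMAD4, with 315 to 453 reads in each library beside 1309 to 1769 for SMAD4, so reads could have been split between them.

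SMAD7 (ENSG00000101665; minus strand of chromosome 18, 48919853 to 48950965), the inhibitory SMAD, had 0.59, 0.78 and 0.71 FPKM in NC and 0.55, 0.83 and 0.88 FPKM in RBM47-OE. The groups overlapped, and RBM47-OE replicate 1 was the lowest of all 6 libraries. SMAD7 differed by 0.04 on the log2 scale, with a standard error of 0.19 (edgeR adjusted p = 0.90), and 0.22 with the GC offset (edgeR adjusted p = 0.52), on 71 to 123 reads in each library. The 95% interval of the fold change ran from 0.789 to 1.34, which holds changes of the size seen in TGFBR1, TGFBR2 and ACVR2A but not the 1.53-fold of ACVR1C. At an exonic GC content of 56.1%, SMAD7 lay in a GC bin whose median log2 fold change was -0.20.

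SKI (ENSG00000157933; plus strand of chromosome 1, 2227388 to 2310213), the founding member of the repressor family and the highest of the 10 in FPKM, fell. It had 10.8, 11.3 and 11.4 FPKM in NC and 9.16, 8.64 and 8.26 FPKM in RBM47-OE, with every RBM47-OE library below every NC library. The change of SKI was -0.43 on the log2 scale, with a standard error of 0.073 (edgeR adjusted p = 1.4e-04), a fall of 25.8%. With the GC offset it was -0.22 (standard error 0.054, edgeR adjusted p = 0.0097), at the highest exonic GC content of the 10 genes, 61.7%, where the median of the GC bin was -0.23. With single libraries left out the log2 fold change was -0.48 to -0.40 and the edgeR adjusted p at most 0.0026.

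SKIL (ENSG00000136603; plus strand of chromosome 3, 170357342 to 170396835) moved the other way. It had 1.69, 1.64 and 1.65 FPKM in NC, a spread of 0.0265 FPKM (SD, n = 3), and 2.19, 2.91 and 2.76 FPKM in RBM47-OE. The groups did not overlap, with RBM47-OE replicate 1 nearest to NC, and the spread in RBM47-OE was wider at 0.380 FPKM (SD, n = 3). Its log2 fold change was 0.58 (standard error 0.10), or 0.22 with the GC offset (standard error 0.081), at an exonic GC content of 36.6%. Over the 6 libraries the genes whose log2 CPM was most like that of SKIL were DCAF10, BARD1 and CCDC186, with a Pearson's r of 1.00, 0.999 and 0.999. Such likeness was common, since 8.66% of all tested genes had an r over 0.95 with SKIL. The 6 points fall into the 2 groups of the comparison, and SKIL was drawn for its change between them. So r with SKIL largely repeats how each gene differed between the groups. No share of all genes is given for lower or negative values of r. With SKIL, r was 0.98 for SMAD2, 0.93 for TGFBR1, 0.91 for TGFBR2, 0.85 for ACVR1C, 0.84 for ACVR2A, 0.82 for SMAD4, 0.33 for SMAD7, -0.91 for SMAD3 and -0.99 for SKI.

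Ratios within a library compare related genes without the library's depth. The FPKM ratio of SMAD2 to SMAD3 was 0.235, 0.236 and 0.219 in NC and 0.285, 0.387 and 0.346 in RBM47-OE. All RBM47-OE libraries were higher, by 0.55 on the log2 scale or 1.46-fold, with an exact two-sided permutation p of 0.10, the smallest that 3 libraries against 3 allow. In the fits the difference between the log2 fold changes of SMAD2 and SMAD3 was 0.56 without and 0.16 with the GC offset. The ratio of TGFBR1 to TGFBR2 was 1.48, 1.55 and 1.32 in NC and 1.22, 1.36 and 1.51 in RBM47-OE, which overlapped (difference -0.09 on the log2 scale, exact permutation p = 0.60). In the fits that pair differed by -0.09 without and -0.28 with the GC offset. Adjusted over these 2 tested ratios, the p-values were 0.20 and 0.60. The ratio of SKIL to SKI, given without a test, was 0.157, 0.145 and 0.145 in NC and 0.239, 0.337 and 0.334 in RBM47-OE, a 2.01-fold rise. In the fits that difference was 1.01 on the log2 scale without and 0.44 with the GC offset.

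**Figure D3:**
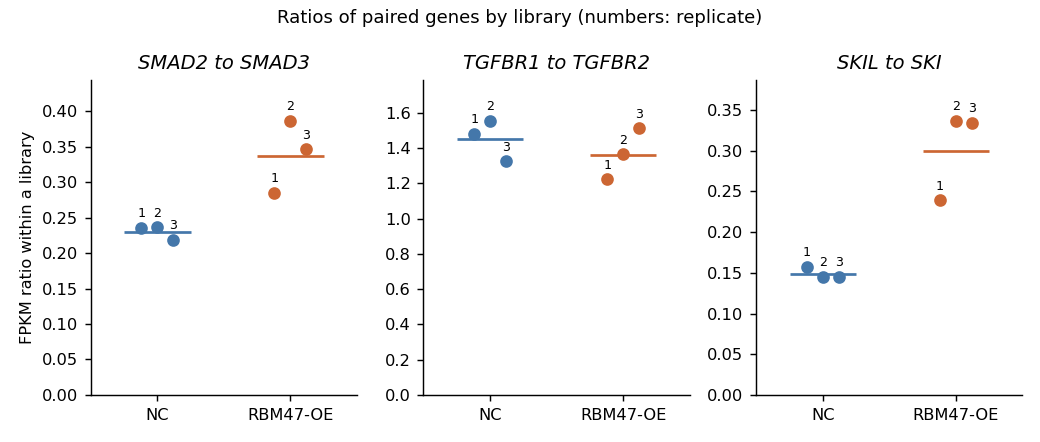
Within-library FPKM ratios for 3 pairs of genes on axes that start at 0, with points numbered by replicate and lines at the mean taken on the log scale. SMAD2 to SMAD3 and SKIL to SKI are higher in all 3 RBM47-OE libraries, with replicate 1 the lowest of them, and TGFBR1 to TGFBR2 overlaps between 1.22 and 1.55.

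The genes differed widely in base composition. Their median exonic GC content was 39.9%, against 49.0% for all tested genes, and 3 of the 10 (SMAD3, SMAD7 and SKI) lay above that value. The log2 fold change was lower where GC content was higher, with Pearson's r of -0.88 and Spearman's rho of -0.74 across the 8 tested genes of the same 6 libraries, and -0.90 and -0.87 with ACVR1C and SKIL, which the study drew for their change. In the bin of lowest GC content, which holds ACVR1C, SKIL, ACVR2A and SMAD4, 65.0% of genes were called higher and 0.246% lower. In the bin of highest GC content, which holds SKI, 0.308% were called higher and 37.4% lower. Relative to the median of its bin, 4 of the 10 genes (TGFBR2, SMAD7, ACVR1C and SKIL) lay higher by more than 1 standard error. Another 2 (SMAD4 and SKI) lay lower by more than 1, and TGFBR1, ACVR2A, SMAD2 and SMAD3 lay within it. The share of all genes this far from their bin median was not computed, so these counts are a description only.

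**Figure D4:**
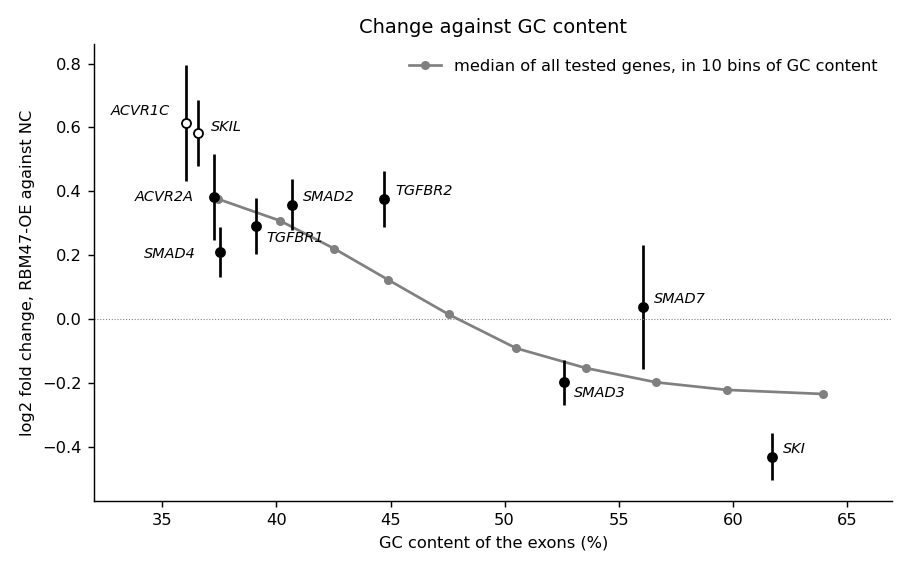
Log2 fold change in RBM47-OE against NC plotted on the GC content of the exons for the 10 genes (circles with 1 standard error, open for ACVR1C and SKIL) and the medians of all tested genes in 10 bins of GC content (grey line). The grey line falls from 0.38 to -0.23, with SKI and SMAD4 below it and TGFBR2, SMAD7, ACVR1C and SKIL above it.

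RBM47 is known as a protein that binds AU-rich and U-rich RNA, often in 3′ UTRs, so the pentamer ATTTA was counted on the sense strand of the canonical 3′ UTRs. The median of 18195 transcripts was 1.67 copies per kilobase, and 28.7% held no copy. ACVR2A had 20 copies in 3548 bases (5.64 per kilobase, above 92.9% of transcripts) and SKIL 23 in 4418 bases (5.21 per kilobase, above 91.3%). ACVR1C had 27 in 7151 bases (3.78 per kilobase, above 81.5%) and SKI 11 in 3448 bases (3.19 per kilobase, above 74.6%). SMAD2 had 89 in its 32870 bases (2.71 per kilobase), TGFBR1 2.25, SMAD4 2.13, SMAD7 1.97 and SMAD3 1.51 per kilobase. TGFBR2 had 1 copy in 2543 bases. A copy of the pentamer is a description of the sequence and not a binding site, and a relation to the changes was not tested.

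The other genes of the pathway were taken from 7 lists of 77 genes in all, of which 63 passed the filter on low counts. Of these, 14 were higher and 9 lower in RBM47-OE by the same edgeR test and threshold, or 22.2% and 14.3%, beside 19.1% and 16.9% of all genes. Their median log2 fold change was -0.0015. With the GC offset 5 were higher and 4 lower, beside 14.5% of all genes in either direction. Among the 5 tested ligands and ligand traps, edgeR called 0 higher and 2 lower, as it did at an unadjusted p under 0.05, and 0 in either direction with the GC offset. DESeq2 also called 0 higher and 2 lower, but the 2 lower calls did not hold in every setting. Scaling to library totals alone left 0 lower, and so did limma on FPKM. TGFB1, the main TGF-beta ligand, averaged 21.1 FPKM in NC (SD 1.59, n = 3) and 18.7 FPKM in RBM47-OE (SD 0.989, n = 3), with a log2 fold change of -0.24 (edgeR adjusted p = 0.015) that became -0.03 with the GC offset. FSTL3, a secreted binder of activins, was at 16.1 ± 1.32 (SD, n = 3) and 14.1 ± 0.774 (SD, n = 3) FPKM, with a log2 fold change of -0.25 (edgeR adjusted p = 0.016), or -0.03 with the offset. The FSTL3 call was lost without NC replicate 2 (edgeR adjusted p = 0.064), NC replicate 3 (0.14) or RBM47-OE replicate 2 (0.10), and that of TGFB1 without those libraries (0.070, 0.13 and 0.061) or RBM47-OE replicate 3 (0.055). TGFB1 and SMAD5 were singled out with their values known. The activin subunit gene INHBA, at 0 to 4 reads in each library, did not pass the filter.

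Of 8 tested genes for the storage and activation of latent TGF-beta, ITGAV was the single higher gene and none was lower. Across all genes 19.1% were higher and 16.9% lower. ITGAV, the alpha V integrin subunit that binds the latent complex, went from 6.10 ± 0.170 (SD, n = 3) to 9.06 ± 0.929 (SD, n = 3) FPKM, a log2 fold change of 0.50 (edgeR adjusted p = 5.3e-05), or 0.14 with the GC offset (edgeR adjusted p = 0.086). Of 8 other receptors and co-receptors, 3 were higher and 1 lower, beside the same shares of all genes. BMPR1A, a type I receptor for bone morphogenetic proteins (BMPs), rose by 0.38 on the log2 scale (edgeR adjusted p = 0.0015), and ACVR1B, the main type I activin receptor, had a log2 fold change of -0.23 (edgeR adjusted p = 0.024). The offset moved these values to 0.11 and -0.12. Then 0 of the 8 passed in edgeR in either direction, beside 14.5% of all genes, nor did any at an unadjusted p under 0.05. The ACVR1B call was lost without NC replicate 1 (edgeR adjusted p = 0.11), 2 (0.066) or 3 (0.091) or RBM47-OE replicate 2 (0.064).

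Of the 4 other SMADs, SMAD5 and SMAD6 were higher and none was lower, and with the GC offset SMAD6 alone was called. Across all genes 19.1% were higher and 16.9% lower, and 14.5% were called in either direction with the offset. SMAD6, the inhibitory SMAD of the BMP branch, had 0.77, 0.92 and 0.91 FPKM in NC and 1.35, 1.30 and 1.02 FPKM in RBM47-OE, without overlap. Its change was 0.43 on the log2 scale, with a standard error of 0.13 (edgeR adjusted p = 0.011), and 0.60 with the GC offset (edgeR adjusted p = 0.0013), at an exonic GC content of 56.6%. Without NC replicate 1 the change was 0.35 and the edgeR adjusted p 0.066. SMAD5, a receptor-regulated SMAD of the BMP branch, had a log2 fold change of 0.42 (edgeR adjusted p = 2.1e-04), and 0.13 with the offset (edgeR adjusted p = 0.11).

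Of 12 regulators of receptors and SMADs, 6 were higher and 1 lower, beside 19.1% and 16.9% of all genes. With the GC offset 1 was higher and 2 were lower, beside 14.5% of all genes in either direction. USP15, a deubiquitinase that acts on the receptor complex, rose by 0.46 on the log2 scale (edgeR adjusted p = 0.0019), or 0.09 with the GC offset (edgeR adjusted p = 0.53). Its groups overlapped in CPM. USP15 had 1.34, 1.48 and 1.37 FPKM in NC and 1.51, 2.19 and 2.39 FPKM in RBM47-OE. FKBP1A, which binds and restrains type I receptors, fell from 56.3 ± 0.361 (SD, n = 3) to 49.5 ± 2.91 (SD, n = 3) FPKM, with a log2 fold change of -0.26 (edgeR adjusted p = 0.0074), or -0.33 with the offset (edgeR adjusted p = 0.0019). Of 10 nuclear partners of SMADs, 1 was higher and 2 lower, beside the same 19.1% and 16.9% of all genes. With the GC offset 1 was higher and 2 were lower, CTBP1 not among them, beside the same 14.5% of all genes. SNW1, a SMAD co-regulator also found in the spliceosome, rose from 24.7 ± 0.362 (SD, n = 3) to 34.2 ± 4.06 (SD, n = 3) FPKM, with a log2 fold change of 0.40 (edgeR adjusted p = 4.2e-04), or 0.23 with the offset (edgeR adjusted p = 0.011). CTBP1, a co-repressor, had a log2 fold change of -0.23 (edgeR adjusted p = 0.015), or -0.02 with the offset. That call was lost without NC replicate 1 (edgeR adjusted p = 0.060), NC replicate 2 (0.094) or RBM47-OE replicate 2 (0.074).

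Of 16 tested target genes of TGF-beta, 1 was higher and 3 lower, with a median log2 fold change of -0.07. With the GC offset 2 were higher and 0 lower in edgeR (3 lower at an unadjusted p under 0.05). The shares of all genes were 19.1% higher and 16.9% lower, and 14.5% in either direction with the offset. CDKN1A, a cell cycle inhibitor that is also a p53 target, had a log2 fold change of -0.32 (edgeR adjusted p = 0.0029), or -0.14 with the GC offset (edgeR adjusted p = 0.15), and was singled out with its values known. ID3, an inhibitor of DNA binding that BMPs induce, had a log2 fold change of -0.38 (edgeR adjusted p = 0.0037), or -0.20 with the offset (edgeR adjusted p = 0.15). Its relative ID2 was the single higher target, at 0.21 (edgeR adjusted p = 0.046), or 0.34 with the offset (edgeR adjusted p = 0.0035). The groups of ID2 overlapped in CPM. The ID2 call held without RBM47-OE replicate 1, and was lost without NC replicate 1 (edgeR adjusted p = 0.068), 2 (0.22) or 3 (0.12) or RBM47-OE replicate 2 (0.27) or 3 (0.062).

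**Figure D5:**
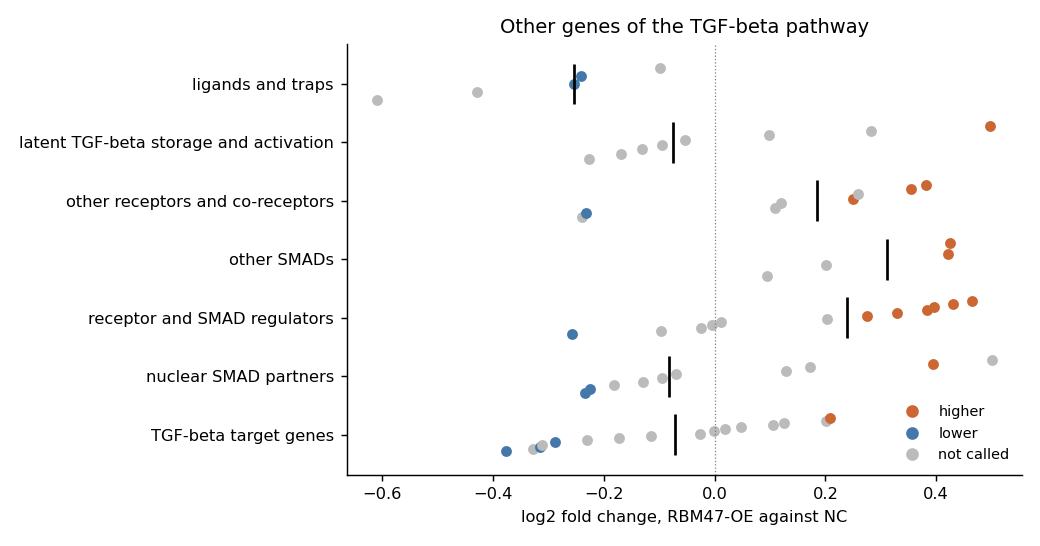
Log2 fold change in RBM47-OE against NC of the 63 tested genes in 7 lists of the TGF-beta pathway, coloured by whether edgeR called the gene higher, lower or neither, with black lines at the list medians. The medians run from -0.25 for ligands and traps to 0.31 for the other SMADs, and the target genes centre on -0.07.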

How the data were processed

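Poly(A) RNA of HCT116 cells was sequenced in read pairs from 3 NC and 3 RBM47-OE libraries. Per the methods, trimming used FASTX-Toolkit and alignment used HISAT2 on GRCh38. The authors deposited raw counts of uniquely mapped reads per gene, 1 column per library. The authors also deposited FPKM values from the same alignments, rounded to 2 decimals. Kit and medium differ between the labels and the methods. The counting tool, annotation release and strand setting are not given in the sources used here.

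Counts were tested with edgeR 4.0.16 in R 4.3.3 (filterByExpr with a minimum count of 10, TMM factors, quasi-likelihood test, condition alone), with Benjamini-Hochberg adjustment over all 16260 genes. Standard errors are the log2 fold change divided by the root of F. Log2 CPM used a prior count of 2. Exonic GC content, coordinates and transcripts came from GENCODE 44 on GRCh38, matched by gene identifier. The GC offset was a loess curve (span 0.3) per library. DESeq2 1.42.0, limma 3.58.1 on FPKM and other settings were alternatives, and the main tools were tested on simulated data. Named genes were the 10 members, RBM47, the markers, the largest called change of each list in each direction, the 3 genes most correlated with SKIL, and overlapping genes, plus TGFB1, SMAD5 and CDKN1A. The members and lists were chosen with earlier results of these data known.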

Additional observations from a re-analysis of the deposited data

How the results depend on the processing

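Directions and calls in RLE factors and DESeq2 matched the reported ones for the 8 tested genes. The GC offset changed most. It left 1 higher and 1 lower gene of the 8, and 1 and 1 with the replicate block added. It reversed TGFBR1 (-0.021, and -0.020 with the block) and SMAD4 (-0.13 and -0.13), and ended the calls of ACVR2A (0.036 and 0.039), SMAD2 (0.087 and 0.086) and SMAD3 (-0.073 and -0.073). The log2 fold changes of ACVR1C (0.25 and 0.26) and SKIL (0.22 and 0.22) were lower by more than the replicate spread. Over all genes it left 975 higher and 1375 lower (1024 and 1427 with the block), and over the pathway lists 5 and 4 (5 and 5).

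SMAD3 lost its call with library totals (-0.14), no filter (-0.19), the replicate block (-0.20) and limma on log2(FPKM + 1) (-0.11) or log2(FPKM + 0.1) (-0.13), leaving 1 lower gene in each. SMAD4 lost it without the filter (0.22) and with the replicate block (0.21), and ACVR2A with limma (0.23 and 0.41). Limma on log2(FPKM + 1) gave 0.17 for ACVR1C and 0.44 for SKIL, where the pseudocount is large beside low FPKM. Lower calls were 1586 and 1599 over all genes with limma at the 2 pseudocounts, and 2 and 2 over the lists, and 5 over the lists with library totals. Library totals moved the median of all genes to 0.06. Of the other named pathway genes, TGFB1 (-0.18), FSTL3 (-0.19) and ACVR1B (-0.17) lost their calls with library totals. ACVR1B also lost its call with no filter (-0.23) and the replicate block (-0.23), and ID2 with the block (0.21). Both limma fits ended the calls of TGFB1, FSTL3, ACVR1B, USP15, CTBP1, ID2 and ID3. SKIL changed more than ACVR1C in both limma fits and without replicate 1 of either group. The causes were not tested.

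Deviations of same-numbered libraries correlated at -0.060, -0.015 and -0.016, so no pairing by replicate number was seen. With 3 libraries in each group these values cannot exclude that same-numbered libraries were prepared together.

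When single libraries were left out, the higher and lower counts ranged over 2 to 5 and 1 to 2 of the 8 genes, 10 to 16 and 4 to 14 of the lists, and 2090 to 3864 and 1675 to 3508 of all genes. Log2 fold changes ranged over 0.24 to 0.39 for TGFBR1, 0.31 to 0.42 for TGFBR2, 0.51 to 0.71 for ACVR1C, 0.28 to 0.45 for ACVR2A, 0.30 to 0.46 for SMAD2, -0.22 to -0.16 for SMAD3, 0.14 to 0.24 for SMAD4, -0.085 to 0.22 for SMAD7, -0.48 to -0.40 for SKI and 0.52 to 0.69 for SKIL. The SMAD2 to SMAD3 difference was 0.45 to 0.67. Depth limits SMAD7 and ACVR1C most, with 146 reads at most in any library.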
